A study of Sus scrofa with 4 samples.

Results

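The RBM and HNRNP genes encode RNA-binding proteins that meet a transcript while it is still in the nucleus. The hnRNP proteins coat nascent RNA and, by where they bind, favour or block splice sites, while the RBM proteins share little more than an RNA recognition motif and work in the spliceosome, in ribosomal RNA processing, in RNA decay and in RNA modification. In the pig embryo at the 4-cell stage both families face a mixed pool, since RNA stored in the oocyte is being cleared while the embryonic genome begins its main wave of transcription. Genes were chosen by symbol alone, those that start with RBM and then a digit, X, S or L, or with HNRNP. The rule found 62 genes, 42 RBM and 20 HNRNP, of 25560 gene names in the table, and these 62 genes held 118 of its 35395 transcript rows.

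The libraries hold RNA of whole 4-cell embryos of Sus scrofa, for all of which the labels name an injection of siRNA, a short RNA that directs the cleavage of its target, into the cytoplasm. The group labelled knockdown, 2 libraries, carries the genotype TFAP2C KD, TFAP2C being the transcription factor AP-2 gamma, and the group labelled control, 2 libraries, carries the genotype and the treatment Control. What the control embryos were injected with, the siRNA sequences, the embryos per library and whether like libraries are separate pools are not stated in the labels, so the p-values rest on a spread between libraries that may be technical. Values are FPKM (fragments scaled to length and depth), summed over the transcript rows of a gene, and every fold change is labelled knockdown minus labelled control on the log2(FPKM + 1) scale.

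TFAP2C itself had deposited values of 0.448 and 3.11 FPKM in labelled knockdowns 1 and 2, against 14.7 and 7.78 FPKM in labelled controls 1 and 2. Its row is the only 1 of 35395 in which coverage divided by FPKM does not give the constant of its own library (relative tolerance 0.001): the values under labelled knockdowns 1 and 2 carry 6.69 and 7.03, the constants of the labelled controls, and those under labelled controls 1 and 2 carry 6.07 and 8.83, the constants of the labelled knockdowns. Read by these constants, the 14.7 and 7.78 FPKM belong to labelled knockdowns 1 and 2, and the 0.448 and 3.11 FPKM to labelled controls 1 and 2. TFAP2C would then be higher in the labelled knockdowns. Whether this row alone or the labels of all columns were exchanged was not tested. If the labels were, every direction given here is reversed. The targeted gene therefore does not check the labels, and "labelled" is kept throughout. None of the 118 RBM and HNRNP rows was off its constants. The constants equal the aligned gigabases, 6.07 to 8.83 a library, provided that FPKM was derived from coverage in StringTie's way. The mitochondrial genome gave 45.8% and 31.9% of all TPM (transcripts scaled to a fixed sum) in labelled knockdowns 1 and 2 and 21.7% and 29.1% in labelled controls 1 and 2; its part in the results was not tested. All 12 oocyte and early embryo markers were present, with sums of 1492 and 1822 FPKM in the labelled knockdowns and 2714 and 2890 FPKM in the labelled controls; all were tested, and WEE2, an oocyte kinase, was the only call, at 153 and 172 FPKM in the labelled knockdowns and 622 and 813 FPKM in the labelled controls (limma, Benjamini-Hochberg adjusted p = 0.0179). The 11 of 14 cumulus and granulosa markers found in the table summed to 10.0 and 7.53 FPKM in the labelled knockdowns and to 2.75 and 5.05 FPKM in the labelled controls, with AMH at 0 in all 4 libraries, FSHR at no more than 0.0592 FPKM, and the largest values from TNFAIP6 (4.32 FPKM, labelled knockdown 1) and DCN (3.67 FPKM, labelled knockdown 2); 3 of them were tested and 0 called by limma. Of all 9850 genes tested 6.57% were called. A positive fold change was found for 1 of the 12 oocyte and early embryo markers, with a median of -0.39. Among all tested genes 42.4% were positive, with a median of -0.13. Of the 3 tested cumulus and granulosa markers 2 were positive. The part of these markers in the results was not tested. In whole embryos, fewer cells of a type and less RNA per cell cannot be told apart.

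Of the 62 genes, RBM3 rose and RBM4B fell in the labelled knockdowns, and no HNRNP gene passed the test. These 2 calls came from 51 tested genes, 34 RBM and 17 HNRNP, that reached a mean of 1 FPKM over the 4 libraries. The share is 3.92% of the tested genes, against 6.57% of all 9850 genes tested (limma, Benjamini-Hochberg adjusted p under 0.05), so the calls were no more frequent here than in the table as a whole. By direction, 5.11% of all tested genes were called higher and 1.46% lower, a split of 77.7% higher among calls, or 62.8% with TPM in place of FPKM. At an unadjusted p under 0.05, 8 RBM and 6 HNRNP genes were higher and 3 RBM and 0 HNRNP genes were lower, where 14.0% of all tested genes were higher and 13.9% lower.

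The fold changes without regard to the test were as follows. The median fold change was 0.41 over the 17 tested HNRNP genes and 0.23 over the 34 tested RBM genes, against -0.13 over all genes tested. A positive fold change was found for 13 HNRNP genes (76.5%) and 23 RBM genes (67.6%), against 42.4% of all tested genes. With TPM the medians were 0.15, -0.03 and -0.39, and after median-ratio scaling 0.56, 0.37 and -0.01. The difference from the median of all genes was 0.54 to 0.57 for HNRNP and 0.36 to 0.38 for RBM under these scalings. Each scaling multiplies a library by a single factor, which moves a family and all genes nearly alike, so it cannot test this difference. The difference was 0.29 for HNRNP and 0.20 for RBM without labelled knockdown 1, and 0.81 and 0.52 without labelled knockdown 2. With no filter on low values it was 0.36 and 0.15. The median level of the tested genes of a family, on the log2(FPKM + 1) scale, overlapped between the groups. For HNRNP it was 4.39 and 4.28 in labelled knockdowns 1 and 2, against 3.95 and 4.44 in labelled controls 1 and 2. For RBM it was 3.33 and 3.02 in the labelled knockdowns, against 3.07 and 3.40 in the labelled controls. Labelled control 2 was the highest library in both families. Both labelled knockdown libraries stood above both labelled controls for 8 of 17 HNRNP genes (47.1%) and 16 of 34 RBM genes (47.1%), against 24.7% of all tested genes. The reverse order held for 1 HNRNP gene (5.88%) and 8 RBM genes (23.5%), against 35.8% of all tested genes. On the TPM scale 6 HNRNP and 10 RBM genes were without overlap in the higher direction and 3 and 11 in the lower, where all tested genes gave 18.3% and 46.2%. Of the tested genes, RBM10, RBM11 and RBM19 had a mean under 1 FPKM in the labelled controls and passed the minimum through the labelled knockdowns. All 3 are among the 23 RBM genes with a positive fold change and the 16 without overlap in the higher direction. RBM10 and RBM19 are also among the 10 on the TPM scale. Their place in these counts supports nothing. RBM11 lay just above the minimum, at a mean of 1.02 FPKM over the libraries, and RBM15 just below, at 0.990 FPKM.

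**Figure D1:**
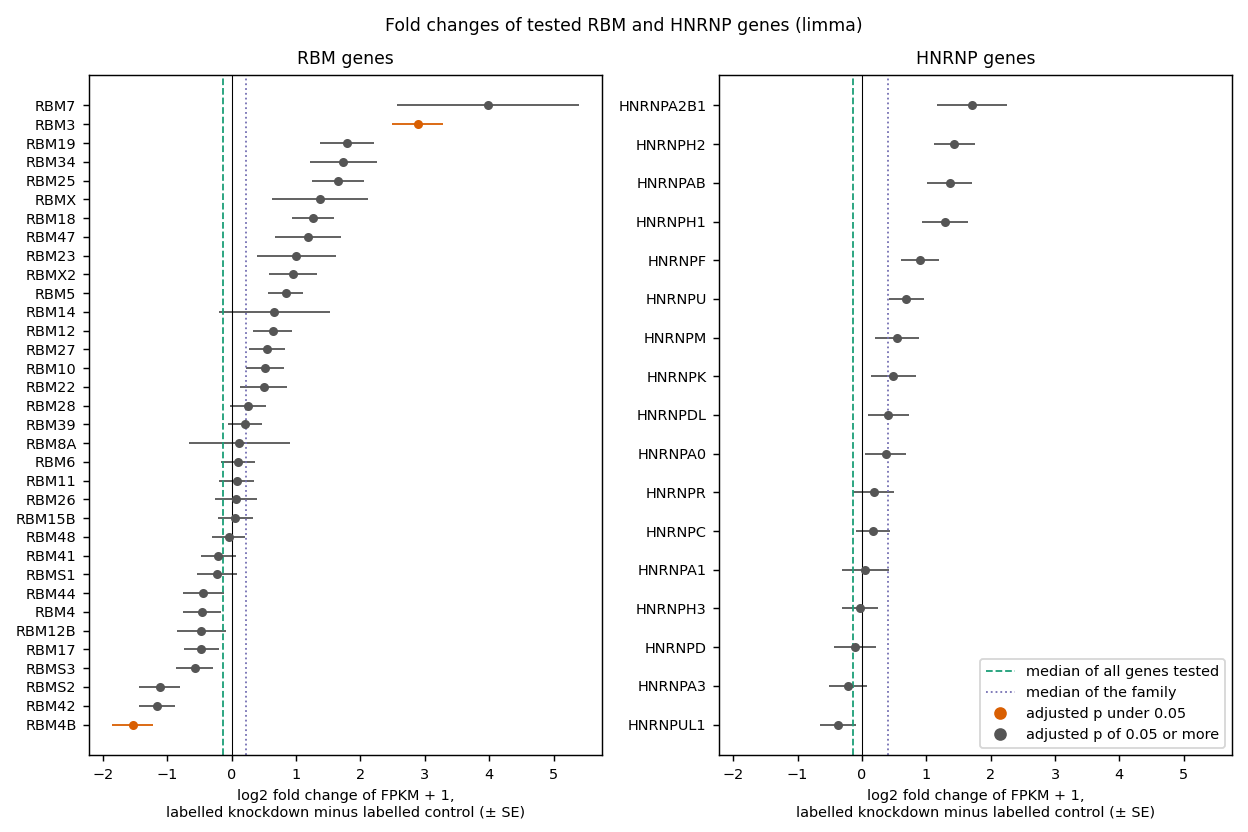
Fold change of FPKM + 1 (log2 scale, labelled knockdown minus labelled control, with its SE from limma) for the 34 RBM genes on the left and the 17 HNRNP genes on the right that were tested. RBM3 and RBM4B are the only points past the threshold, and the family medians, 0.23 and 0.41, lie right of the median of all genes tested, -0.13.

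As a sum over its 20 genes the HNRNP family reached 591 and 546 FPKM in labelled knockdowns 1 and 2, against 314 and 390 FPKM in labelled controls 1 and 2. The groups did not overlap, also in TPM, with 900 and 995 in the labelled knockdowns and 641 and 784 in the labelled controls. HNRNPU was the first gene of that sum in every library, at 20.3% to 21.6%. The 42 RBM genes summed to 864 and 473 FPKM in the labelled knockdowns, against 335 and 391 FPKM in the labelled controls. A single gene, RBM7, made up 36.8% of the sum in labelled knockdown 1 and 10.7% in labelled knockdown 2. Without RBM7 the sums were 546 and 423 FPKM in the labelled knockdowns and 334 and 359 FPKM in the labelled controls, still without overlap.

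**Figure D2:**
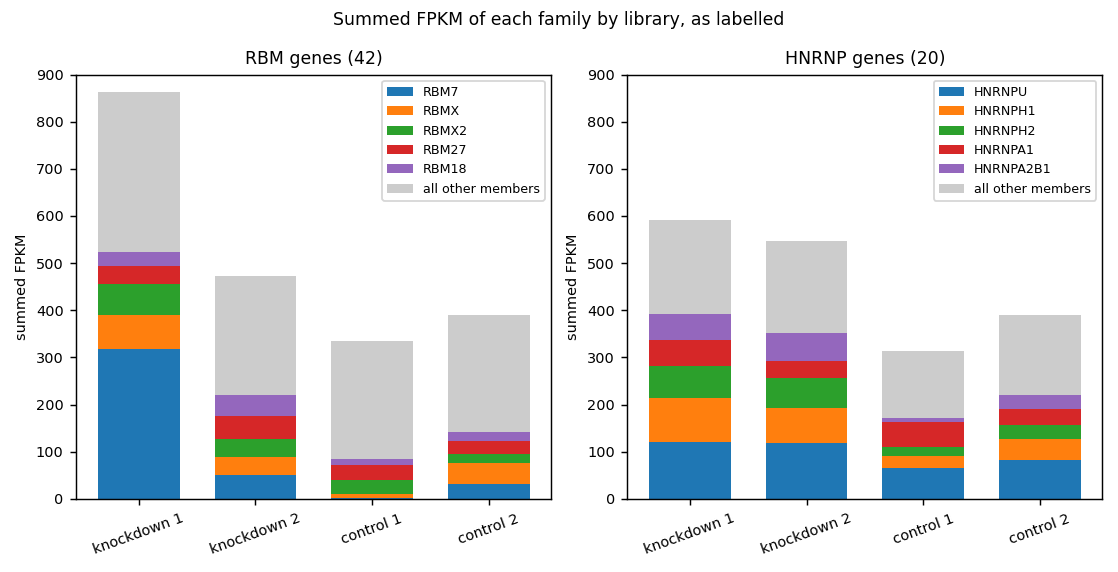
Summed FPKM of the 42 RBM genes (left) and the 20 HNRNP genes (right) in each library, with the 5 genes of highest mean in colour and the rest in grey. RBM7 is the tallest coloured block of the RBM bar in labelled knockdown 1, at 318 FPKM against 50.7 FPKM in labelled knockdown 2, while the HNRNP bars stand at 591 and 546 FPKM in the labelled knockdowns and 314 and 390 FPKM in the labelled controls.

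RBM3 is a small RNA-binding protein induced by mild cold and other stress, known for holding up translation. It was at 46.8 and 23.8 FPKM in labelled knockdowns 1 and 2, against 3.02 and 4.38 FPKM in labelled controls 1 and 2. Both labelled knockdowns lay well above both labelled controls, with a 9.54-fold higher mean. The gene (gene ID 100627807, chromosome X, 42704019 to 42707587, Sscrofa11.1) has a single transcript row, so no split between rows touches its value. Its fold change was 2.89 (SE 0.40; Benjamini-Hochberg adjusted p = 0.0199 in limma). The call was kept with a pseudocount of 0.1, a minimum of 5 FPKM, median-ratio scaling, TPM and no variance trend, but the settings that lost it include no filter on low genes (adjusted p = 0.152) and leaving out labelled knockdown 1 (0.158), labelled knockdown 2 (0.0766) or labelled control 1 (0.0623). Over all alternatives its fold change was 2.41 to 3.36 in limma. CIRBP, the other cold-inducible protein of this kind, stood at 0.388 and 3.69 FPKM in the labelled knockdowns and 1.62 in each labelled control; its groups overlapped and its fold change was -0.04 (SE 0.58).

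RBM4B is a close paralog of RBM4, a regulator of alternative splicing and translation. It was at 5.12 and 4.39 FPKM in labelled knockdowns 1 and 2, against 19.1 and 12.9 FPKM in labelled controls 1 and 2. Each labelled knockdown lay under each labelled control, at 0.297 times the mean. The fold change was -1.54 (SE 0.31; Benjamini-Hochberg adjusted p = 0.0464 in limma), close to the threshold. The settings under which it missed the threshold include a pseudocount of 0.1 (adjusted p = 0.0578), no filter (0.170), median-ratio scaling (0.0566) and leaving out any 1 of the 4 libraries (0.0675 to 0.224 in limma). RBM4B (gene ID 100144418, chromosome 2, 5745364 to 5758177) lies 18358 bases from RBM4 (5776535 to 5784337), which in turn lies 7108 bases from RBM14 (5791445 to 5800784), a paraspeckle protein and coactivator. RBM4 was at 21.1 and 20.6 FPKM in the labelled knockdowns, against 34.2 and 24.8 FPKM in the labelled controls, lower in both but with a fold change of -0.46 (SE 0.29) and an adjusted p of 0.342 (limma). Because the paralogs can share reads, their sum was also taken, and it stood at 26.2 and 25.0 FPKM in the labelled knockdowns, against 53.3 and 37.6 FPKM in the labelled controls. The groups did not overlap in that sum either. RBM14 was scattered, at 7.87 and 1.10 FPKM in the labelled knockdowns and 0.430 and 4.20 FPKM in the labelled controls, with neither group apart.

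**Figure D3:**
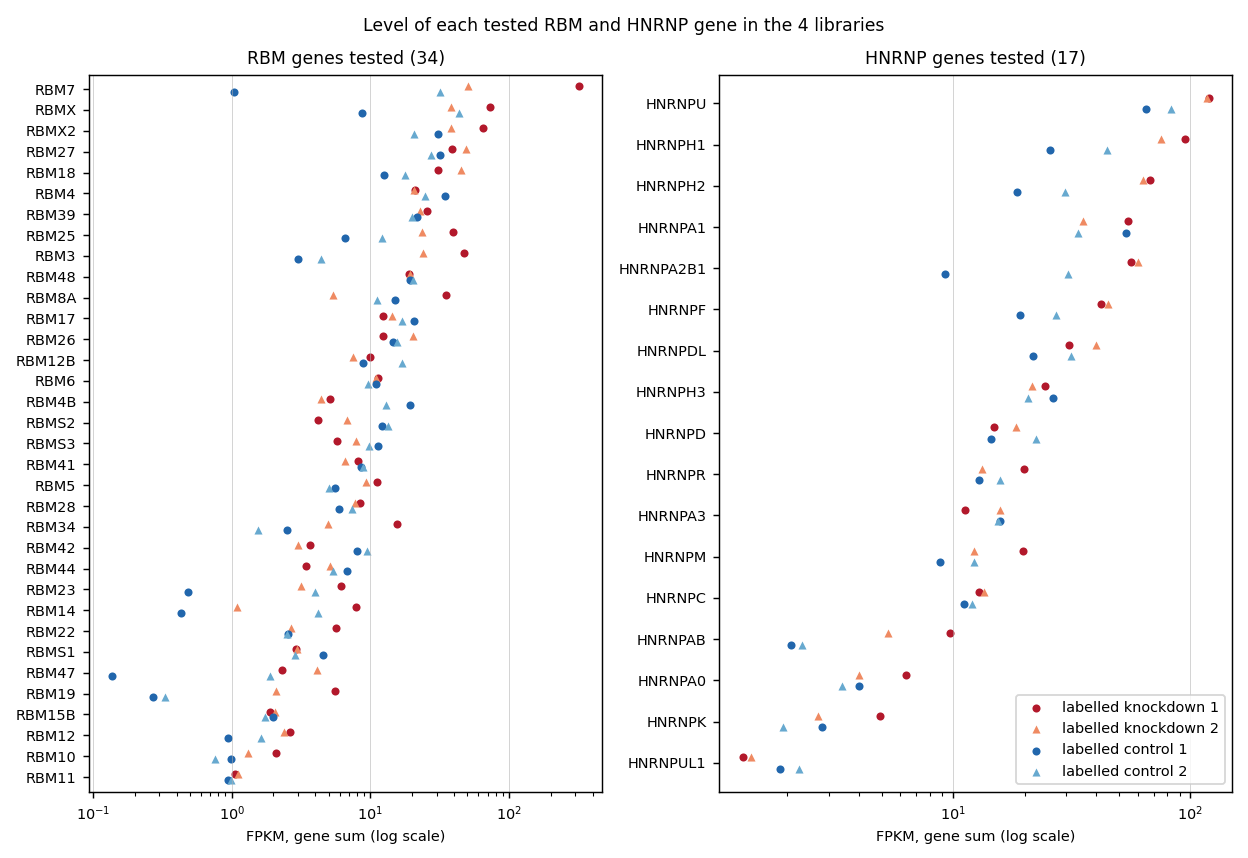
FPKM of every tested gene (log axis) in the 4 libraries, red and orange for labelled knockdowns 1 and 2 and dark and light blue for labelled controls 1 and 2, RBM genes left and HNRNP genes right, ordered by mean. RBM3 shows both labelled knockdowns right of both labelled controls, at 46.8 and 23.8 against 3.02 and 4.38 FPKM, and RBM4B shows the reverse, at 5.12 and 4.39 against 19.1 and 12.9 FPKM; RBM7 spans 1.05 to 318 FPKM.

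Among the 13 RBM genes of the spliceosome and its accessory complexes none passed the test. Of their fold changes 9 were above 0, as were 42.4% of those of all tested genes, and the median of the 13 was 0.21. RBM10 is among the 9 and reached the minimum for testing only through the labelled knockdowns. RBM25, a splicing regulator linked to the U1 particle, stood at 39.1 and 23.3 FPKM in labelled knockdowns 1 and 2, against 6.52 and 12.1 FPKM in labelled controls 1 and 2. Its groups were apart, yet its fold change of 1.65 (SE 0.41) had an adjusted p of 0.0721 (limma). RBMX2, of the RES complex that helps the spliceosome retain and splice introns, was at 64.9 and 38.2 FPKM in the labelled knockdowns, against 30.7 and 20.6 FPKM in the labelled controls, a fold change of 0.96 (SE 0.37, adjusted p = 0.166 in limma). RBM39, a U2AF-related splicing factor, differed little, at 25.4 and 22.8 FPKM in the labelled knockdowns and 21.5 and 19.9 FPKM in the labelled controls. RBM5, which acts on the splicing of apoptosis genes, was at 11.2 and 9.32 FPKM in the labelled knockdowns, against 5.54 and 5.05 FPKM in the labelled controls, while its neighbour and paralog RBM6, 9962 bases away on chromosome 13, was at 11.3 and 10.9 FPKM in the labelled knockdowns and 11.0 and 9.66 FPKM in the labelled controls. The 2 adjacent paralogs thus gave fold changes of 0.84 (SE 0.28) and 0.10 (SE 0.27), whose difference was not tested.

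On the lower side of this set, RBM42 was at 3.67 and 3.02 FPKM in the labelled knockdowns, against 8.05 and 9.43 FPKM in the labelled controls, without overlap. Its fold change of -1.17 (SE 0.28) had an adjusted p of 0.0689, and of 0.0453 with TPM, where it was called (limma). RBM17 (SPF45), which recognises 3' splice sites, was at 12.3 and 14.2 FPKM in the labelled knockdowns, against 20.6 and 17.0 FPKM in the labelled controls, a fold change of -0.47 (SE 0.28). RBM48, a factor of minor intron splicing, was the most even of the set, between 18.8 and 20.2 FPKM in all 4 libraries. RBM8A (Y14), a core protein of the exon junction complex, was uneven within the labelled knockdowns, at 34.8 and 5.35 FPKM in the labelled knockdowns and 15.0 and 11.1 FPKM in the labelled controls: the labelled knockdowns lay on either side of the labelled controls.

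Calls among the partners of these proteins are given beside the 6.57% of all tested genes that were called. Of 18 listed proteins of the U2 particle and of spliceosome activation, 16 were tested, 0 were called higher and 1 lower, with a median fold change of 0.09. The fall was that of BUD13, a partner of RBMX2 in the RES complex, which was at 16.6 and 25.6 FPKM in labelled knockdowns 1 and 2, against 56.5 and 65.5 FPKM in labelled controls 1 and 2. Its fold change was -1.52 (SE 0.32, Benjamini-Hochberg adjusted p = 0.0496 in limma), close to the threshold. That is opposite in sign to the fold change of RBMX2, which was not called. All 11 listed exon junction and nonsense-mediated decay proteins were tested and none was called, with a median of -0.05. MAGOH, a partner of RBM8A, was at 46.9 and 60.1 FPKM in the labelled knockdowns and 59.3 and 51.0 FPKM in the labelled controls. CASC3, RNPS1, UPF1 and UPF3A were without overlap in the lower direction, as were 35.8% of all tested genes. MAGOHB, SAP18 and UPF2 were so in the higher direction, as were 24.7% of all tested genes. MAGOHB reached the minimum for testing only through the labelled knockdowns.

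None of the 3 RBM genes of ribosomal RNA processing and the nucleolus, RBM19, RBM28 and RBM34, passed the test. In FPKM each was without overlap in the higher direction, as were 24.7% of all tested genes, and on the TPM scale RBM28 overlapped. RBM19, needed for pre-rRNA cleavage, was at 5.57 and 2.08 FPKM in the labelled knockdowns, against 0.270 and 0.330 FPKM in the labelled controls. RBM34, a nucleolar protein, was at 15.5 and 4.97 FPKM in the labelled knockdowns, against 2.50 and 1.55 FPKM in the labelled controls. For both, labelled knockdown 1 was the higher library of its group by a wide margin. Their fold changes were 1.79 (SE 0.42, adjusted p = 0.0645) and 1.73 (SE 0.52, adjusted p = 0.105) in limma. RBM19 reached the minimum for testing only through the labelled knockdowns, so its separation of the groups, and its call with TPM (limma, adjusted p = 0.0458), support nothing about this set. RBM28, which works in the maturation of the large ribosomal subunit, had a smaller fold change of 0.25 (SE 0.28), at 8.35 and 7.67 FPKM in the labelled knockdowns and 5.92 and 7.30 FPKM in the labelled controls.

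RBM7 joins the helicase MTREX and the zinc knuckle protein ZCCHC8 in the NEXT complex, which hands nuclear RNA to the exosome. It had the largest positive fold change of the tested RBM and HNRNP genes, 3.98, and the largest error, an SE of 1.42, with an adjusted p of 0.141 (limma). The gene (gene ID 100522453, chromosome 9, 41947081 to 41955683) was at 318 and 50.7 FPKM in labelled knockdowns 1 and 2, against 1.05 and 31.5 FPKM in labelled controls 1 and 2. The 4 values do not overlap, but labelled knockdown 2 and labelled control 2 are closer to each other than to the other library of their group. Without labelled control 2 the fold change was 5.97 and passed (limma, adjusted p = 0.0144), and without labelled control 1 it was 1.98. RBM7 overlaps C9H11orf71 in RefSeq, and whether the counting used strand is not given in the sources used here.

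Its partners did not follow one direction. ZCCHC8 was at 3.72 and 3.14 FPKM in the labelled knockdowns, against 8.36 and 7.50 FPKM in the labelled controls, and MTREX, listed under its older name SKIV2L2, was at 35.8 and 29.4 FPKM in the labelled knockdowns and 47.7 and 34.5 FPKM in the labelled controls. EXOSC3, a cap subunit of the exosome, rose, with 10.6 and 11.7 FPKM in the labelled knockdowns, against 0.849 and 2.66 FPKM in the labelled controls. With 2.22 (SE 0.39, Benjamini-Hochberg adjusted p = 0.0362 in limma) it was the only call among 6 tested of 7 listed genes. Their median was 1.28, and 6.57% of all tested genes were called. EXOSC10, the nuclear exonuclease of the exosome, stood at 8.35 and 3.89 FPKM in the labelled knockdowns and at 2.24 FPKM in labelled control 2, and its row in labelled control 1 holds 0. RBM26 and RBM27 are paralogs linked to the decay of polyadenylated nuclear RNA. RBM27 was at 38.8 and 48.5 FPKM in the labelled knockdowns, against 31.5 and 27.3 FPKM in the labelled controls, a fold change of 0.55 (SE 0.28), and RBM26 overlapped, with 0.07 (SE 0.33). On the TPM scale RBM27 overlapped as well.

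RBM15 and RBM15B bring the m6A methyltransferase complex to its RNA. RBM15B was at 1.88 and 2.04 FPKM in the labelled knockdowns and 1.97 and 1.74 FPKM in the labelled controls, and RBM15 was under the minimum for testing. The 6 listed proteins of the writer complex were all tested and none was called, where 6.57% of all tested genes were. A positive fold change was found for 1 of them, and for 42.4% of all tested genes. The median of the 6 was -0.44. CBLL1, an accessory protein of that complex, was at 151 and 199 FPKM in the labelled knockdowns, against 214 and 271 FPKM in the labelled controls. METTL3, the catalytic subunit, was at 4.49 and 6.81 FPKM in the labelled knockdowns, against 11.3 and 11.6 FPKM in the labelled controls, a fold change of -0.93 (SE 0.30, adjusted p = 0.122 in limma).

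Among regulators of alternative splicing, RBMX (hnRNP G, on the X chromosome) showed a wide spread between the labelled controls. It was at 72.2 and 38.0 FPKM in the labelled knockdowns, against 8.62 and 43.8 FPKM in the labelled controls. The groups overlapped, the fold change was 1.36 (SE 0.75, adjusted p = 0.287 in limma), and it ran from 0.25 without labelled control 1 to 2.47 without labelled control 2. RBM47 was at 2.30 and 4.12 FPKM in the labelled knockdowns, against 0.138 and 1.89 FPKM in the labelled controls, with the same low library. RBM18, whose role is little described, was at 30.6 and 44.9 FPKM in the labelled knockdowns, against 12.5 and 17.6 FPKM in the labelled controls, a fold change of 1.26 (SE 0.33, adjusted p = 0.0817 in limma); its locus on chromosome 1 overlaps MRRF. The 3 RBMS genes, whose proteins bind single-stranded nucleic acid, had negative fold changes, where 42.4% of all tested genes had a positive one. RBMS2 and RBMS3 were without overlap in the lower direction, as were 35.8% of all tested genes. RBMS1 overlapped in FPKM but was without overlap in the lower direction on the TPM scale, as were 46.2% of all tested genes. RBMS2 was at 4.18 and 6.72 FPKM in the labelled knockdowns, against 12.1 and 13.5 FPKM in the labelled controls, a fold change of -1.12 (SE 0.32, adjusted p = 0.0926 in limma), and RBMS3 at 5.78 and 7.82 FPKM in the labelled knockdowns, against 11.3 and 9.82 FPKM in the labelled controls.

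The germ cell genes of the family were low. RBM44 was the only tested one, at 3.42 and 5.15 FPKM in the labelled knockdowns, against 6.81 and 5.40 FPKM in the labelled controls. RBM46 reached 1.52 FPKM at most and RBMXL2, the testis copy of RBMX, 0.224 FPKM. The other genes under the minimum were RBM15, RBM20, RBM24, RBM33, RBM38, RBM45, HNRNPL, HNRNPLL and HNRNPUL2, with 1.75 FPKM the highest value among all 11, for RBM15 in labelled knockdown 1. These genes were not tested, and at such levels no difference can be read.

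Within the HNRNP family, HNRNPF, HNRNPH1 and HNRNPH2, which bind runs of G and act on splice site choice, stood without overlap in the higher direction. They were among 8 of the 17 tested HNRNP genes in that state, as were 24.7% of all tested genes. HNRNPH1 was at 94.6 and 75.3 FPKM in labelled knockdowns 1 and 2, against 25.7 and 44.7 FPKM in labelled controls 1 and 2. HNRNPH2, a near-identical paralog on the X chromosome, was at 67.3 and 63.1 FPKM in the labelled knockdowns, against 18.6 and 29.5 FPKM in the labelled controls. HNRNPF was at 41.9 and 44.8 FPKM in the labelled knockdowns, against 19.1 and 27.0 FPKM in the labelled controls. None passed the test: their fold changes were 1.29 (SE 0.35, adjusted p = 0.0889), 1.43 (SE 0.32, adjusted p = 0.0573) and 0.90 (SE 0.29, adjusted p = 0.122) in limma. After median-ratio scaling HNRNPH2 was called (limma, adjusted p = 0.0461). The sum of HNRNPH1 and HNRNPH2, which can share reads, was 162 and 138 FPKM in the labelled knockdowns, against 44.3 and 74.2 FPKM in the labelled controls. HNRNPH3, the shorter relative, did not share this pattern in its values, at 24.5 and 21.5 FPKM in the labelled knockdowns and 26.2 and 20.8 FPKM in the labelled controls.

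The A/B and D types differed among themselves. HNRNPA2B1, which packages RNA and reads splicing and transport signals, was at 56.1 and 59.9 FPKM in labelled knockdowns 1 and 2, against 9.20 and 30.6 FPKM in labelled controls 1 and 2. Both labelled knockdowns were above both labelled controls, but the labelled controls were far apart, and the fold change was 1.72 (SE 0.54, adjusted p = 0.115 in limma). It passed without labelled control 2, at 2.53 (limma, adjusted p = 0.0163), and was 0.90 without labelled control 1. Its close relative HNRNPA1 overlapped, at 54.4 and 35.4 FPKM in the labelled knockdowns and 53.6 and 33.5 FPKM in the labelled controls, a fold change of 0.05 (SE 0.37). HNRNPAB, a lower member, was at 9.69 and 5.31 FPKM in the labelled knockdowns, against 2.07 and 2.32 FPKM in the labelled controls, with 1.36 (SE 0.35, adjusted p = 0.0777 in limma). HNRNPD (AUF1), which binds AU-rich elements and destabilises RNA, overlapped at 14.9 and 18.5 FPKM in the labelled knockdowns and 14.4 and 22.4 FPKM in the labelled controls. HNRNPDL, whose gene is 34621 bases away on chromosome 8, overlapped too, at 30.8 and 39.9 FPKM in the labelled knockdowns and 21.8 and 31.3 FPKM in the labelled controls.

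HNRNPU, a nuclear scaffold protein that binds both RNA and chromatin, had the highest mean of the HNRNP genes. It was at 120 and 118 FPKM in the labelled knockdowns, against 64.8 and 82.8 FPKM in the labelled controls. The groups were apart and the fold change was 0.69 (SE 0.27, adjusted p = 0.172 in limma). In FPKM its relative HNRNPUL1 was the only tested HNRNP gene without overlap in the lower direction. HNRNPUL1 was at 1.30 and 1.41 FPKM in the labelled knockdowns, against 1.86 and 2.25 FPKM in the labelled controls. On the TPM scale HNRNPA3 and HNRNPH3 were also without overlap in the lower direction. HNRNPC, which binds runs of U, was at 12.9 and 13.5 FPKM in the labelled knockdowns and 11.1 and 12.0 FPKM in the labelled controls. HNRNPK, a KH domain protein, was low at 4.91 and 2.69 FPKM in the labelled knockdowns and 2.80 and 1.92 FPKM in the labelled controls, and overlapped.

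Proteins of the same kind under other names gave a mixed picture. Of 17 hnRNP-type genes whose symbols do not start with HNRNP, 12 were tested and none was called. Of their fold changes 6 were above 0, as were 42.4% of those of all tested genes, and the median was -0.01. The polypyrimidine tract proteins PTBP1, PTBP2 and PTBP3 overlapped between the groups. SYNCRIP (hnRNP Q) was at 21.8 and 23.5 FPKM in the labelled knockdowns, against 13.0 and 11.6 FPKM in the labelled controls, a fold change of 0.83 (SE 0.27). Of 25 other regulators of splicing, 21 were tested, 3 rose and none fell, with a median of 0.39. ILF2, a nuclear protein of RNA processing, was at 49.1 and 35.4 FPKM in the labelled knockdowns, against 3.59 and 10.5 FPKM in the labelled controls, a fold change of 2.55 (SE 0.49, adjusted p = 0.0425 in limma). SFPQ, a paraspeckle protein, was at 42.6 and 25.9 FPKM in the labelled knockdowns, against 6.10 and 9.52 FPKM in the labelled controls, with 1.99 (SE 0.37, adjusted p = 0.0403 in limma). TRA2B, which promotes exon inclusion, was at 44.3 and 37.9 FPKM in the labelled knockdowns, against 9.80 and 16.5 FPKM in the labelled controls, with 1.61 (SE 0.33, adjusted p = 0.0487 in limma). These lists were set beside the 6.57% of all genes called, and nothing particular is read from them. The settings that lost the calls of BUD13, EXOSC3, ILF2, SFPQ and TRA2B include no filter on low values, under which no gene was called.

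Values of single transcript rows were also compared. Of the 62 genes 26 have 2 or more rows, and 66 of the 118 rows were tested. None was called (limma on 11230 rows, Benjamini-Hochberg adjusted p under 0.05, where 0.926% of all rows were called), and 10 had an unadjusted p under 0.05, where 20.1% of all rows did. In HNRNPH1 the rows differed within both groups: its first row held 14.7% and 100% of the gene in labelled knockdowns 1 and 2 and 47.8% and 21.0% in labelled controls 1 and 2. The second row held 85.3% and 0% in the labelled knockdowns and 52.2% and 0% in the labelled controls, and the third 79.0% in labelled control 2 alone. HNRNPU, both of whose rows carry RefSeq's prefix for predicted non-coding RNA, had 28.0% and 97.4% in its first row in the labelled knockdowns and 49.5% and 99.3% in the labelled controls, so that like-numbered libraries were closer than libraries of a group. HNRNPF had 100% in its first row in all libraries but labelled knockdown 2, where that row held 51.9% and the second 45.3%. RBM26 had 62.7% and 73.1% in its first row in the labelled knockdowns and 43.1% and 47.5% in the labelled controls. Its second row held 37.3% and 26.9% in the labelled knockdowns and 36.8% and 52.6% in the labelled controls. The leading row of RBM26 thus differed between the labelled controls. In RBM4B the first row held all of the gene in both labelled knockdowns and in labelled control 2, but only 1.86% in labelled control 1, so the fall of this gene was called on the sum, and neither row was called.

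**Figure D4:**
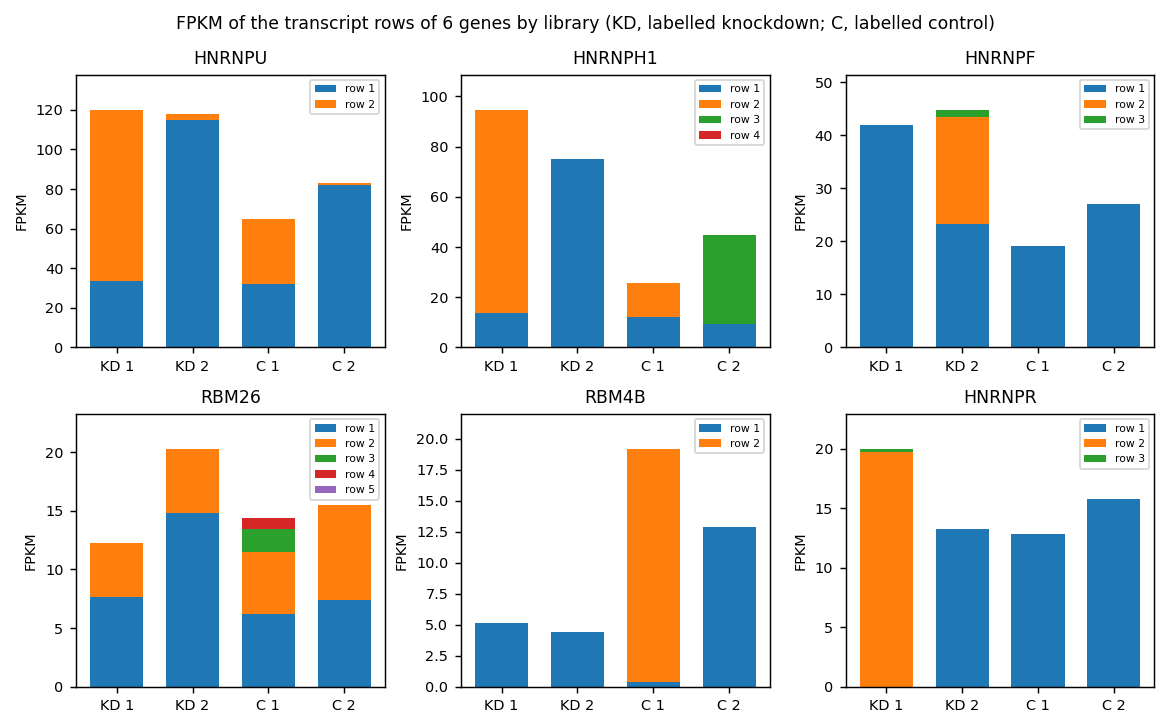
FPKM of the transcript rows of 6 genes in the labelled knockdowns (KD) and labelled controls (C), stacked to the gene sum. For HNRNPH1, HNRNPU, HNRNPR, RBM4B and RBM26 the row that holds the largest share of the gene changes within a group. The first row of HNRNPH1, for example, holds 14.7% in labelled knockdown 1 and 100% in labelled knockdown 2.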

How the data were processed

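The table holds 1 row per transcript for 4 libraries of 4-cell embryos, per the file headers with coverage, FPKM and TPM. The tools were Bowtie2 2.3.5, StringTie 2.1.7 and cutadapt with the assembly Sscrofa11.1, per the submitters' processing notes; for their roles, the annotation release and the strand setting the sources used here give nothing. Deposited coverage is the authors' mean read depth per base, FPKM is scaled by the authors for length and library size, and TPM is scaled by the authors to a fixed sum. FPKM sums ran from 489479 to 657450 a library, so a level shift between libraries moves FPKM and TPM apart. Libraries were made with a SMARTer kit, per the labels' protocols, and no read counts were used; the test for counts foreseen for a count table was therefore not run.

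Rows were named by RefSeq accession (32816 rows), by another version of it (4), by symbol (2305), by the name in the file (246) or not at all (24), and FPKM was summed to genes. All 118 RBM and HNRNP rows had the same symbol in the file and in RefSeq. Genes whose mean reached 1 FPKM entered a limma 3.58.1 fit under R 4.3.3 (eBayes with a trend) on log2(FPKM + 1), which understates changes of low genes, with group as the only term, 2 residual degrees of freedom, two-sided p-values and Benjamini-Hochberg adjustment over all genes at 0.05. The fit was tested on simulated data. Error is the SE of limma, and with 2 libraries a group each library's value is given. Coordinates span the gene in the RefSeq table of Sscrofa11.1. Named are TFAP2C, the called genes, the 8 highest of each family, genes with 2 or more rows of at least 5 FPKM and up to 3 called partners a direction; all others were named after their values were seen. The genes and lists were chosen with earlier results of these data known. Listed genes not found in the table (NONO, FOXL2, HAS2 and INHA) are not analysed here. The calls depend on a design of 2 against 2, and the alternatives tried are a pseudocount of 0.1, a minimum of 5 FPKM or none, median-ratio scaling, TPM, transcript rows, the replicate number as a block, no variance trend and leaving out each library.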

Additional observations from a re-analysis of the deposited data

How the results depend on the processing

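Over all genes, 503 were called higher and 144 lower. A pseudocount of 0.1 gave 312 and 62, a minimum mean of 5 FPKM 320 higher, median-ratio scaling 78 lower, TPM 268 lower, transcript rows 70 and 34, and no filter 0 and 0 (limma; 1930 higher and 1766 lower at an unadjusted p under 0.05). Leaving out 1 library gave 0 to 479 higher and 0 to 47 lower, with 0 without labelled knockdown 1 or without labelled knockdown 2. The RBM count, 1 higher and 1 lower, became 0 lower with the pseudocount of 0.1 and with median-ratio scaling, 2 and 2 with TPM (RBM19 and RBM42 added), and 0 and 0 without a filter; leaving out 1 library gave 0 to 3 higher and 0 lower. The HNRNP count, 0 higher, was 1 with median-ratio scaling (HNRNPH2) and 0 to 1 when a library was left out (HNRNPA2B1, without labelled control 2). With TPM the RBM median was -0.033 and the HNRNP median 0.149, with the median of all genes at -0.394. RBM3 was called in 6 of 11 alternatives and RBM4B in 3, and 15 of the 19 named genes kept their direction in all 11; HNRNPA1, HNRNPH3, RBM26 and RBM39 did not. The cause of these differences was not tested.

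The titles give both groups the same replicate numbers, but nothing says that a number marks a shared pool or day. The deviations of like-numbered libraries from their group means correlated at r = -0.143 across genes. With a replicate block limma called 125 genes higher and 8 lower, and 0 RBM genes higher and 0 lower (RBM3 at an adjusted p of 0.058 and RBM4B at 0.0823). With 2 libraries a group and FPKM alone, depth limits low genes by an amount that the table does not give.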

Other observations

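The change of leading transcript row within a group was counted over the table. Of 1566 genes with at least 2 rows and at least 5 FPKM in every library, the row with the highest FPKM differed between the 2 labelled knockdowns for 310 and between the 2 labelled controls for 304. At least 1 of these held for 506 genes (32.3%), and the same row led in all 4 libraries for 1010 (64.5%). Of the 18 RBM and HNRNP genes in this set, the leading row differed within a group for 8 (44.4%) and was the same in all 4 libraries for 9 (50.0%). RBMS3 was the only 1 of the 18 in which the leading row was the same within each group and different between groups: its first row held 100% and 86.6% of the gene in labelled knockdowns 1 and 2 and 36.2% and 43.6% in labelled controls 1 and 2. The second row of RBMS3 stood at 0 and 1.05 FPKM in the labelled knockdowns, against 7.21 and 5.54 FPKM in the labelled controls, and it was not called (limma on transcript rows, Benjamini-Hochberg adjusted p = 0.144). RBMS3 was singled out after its values were seen.

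BCAS2, a protein of the complex that activates the spliceosome and a member of the U2 and activation list, had the highest single value of that list: it was at 305 and 117 FPKM in labelled knockdowns 1 and 2, against 12.1 and 55.8 FPKM in labelled controls 1 and 2. Its order over the 4 libraries was that of RBM7, with labelled control 1 lowest and labelled knockdown 1 highest, and it was not called (fold change 2.80, SE 0.78, limma with Benjamini-Hochberg adjusted p = 0.0907). It was chosen after its values were seen.

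Of the 62 genes 6 lie on chromosome X: RBM3, RBM10, RBM41, RBMX, RBMX2 and HNRNPH2. Of these, RBM3, RBM10, RBMX2 and HNRNPH2 had both labelled knockdowns above both labelled controls in FPKM, as had 24.7% of all tested genes. RBM41 had both below, as had 35.8% of all tested genes, and RBMX overlapped. RBM10 reached the minimum for testing only through the labelled knockdowns.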
